A study of Mus musculus with 9 samples.

Results

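Livers of mice fed CDAA-HFD, a high-fat diet that lacks choline and gives its protein as free L-amino acids, were compared with livers of mice fed normal chow, both under treatment with vehicle alone. All animals were male wild-type C57BL/6J mice, and each group holds 3 libraries of poly(A)-selected liver RNA, called chow and vehicle below. A further group of 3 libraries, CDAA-HFD livers treated with the compound 326E at 30 mg/kg for 6 weeks, entered the fit for its estimate of the spread and is not otherwise reported. The library titles of every group, chow included, begin with MCD, an abbreviation often used for another diet, while the growth protocol names CDAA-HFD and normal chow, and the protocol is followed. The labels give neither the age of the mice, nor the length of feeding, nor whether the libraries of a group come from different mice, so p-values measure only the spread between these libraries. Of the 54532 genes in the table, the 13150 with at least 0.5 FPKM (fragments per kilobase of gene, scaled for sequencing depth) in at least 3 of the 6 chow and vehicle libraries were compared. Of these, 641 passed this filter through the vehicle libraries only and 119 through the chow libraries only. Such genes had to differ. Their numbers are given below, and the counts of rises and falls on the gene lists include them.

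Diets without choline limit the export of fat from the liver as lipoprotein particles, and with added fat they produce steatohepatitis, in which hepatocytes fill with lipid, leukocytes enter and scar tissue is laid down. Lipid-laden macrophages in such livers carry a large lysosomal compartment, whose enzymes and proton pump are under control of the MiT/TFE transcription factors (MITF, TFEB, TFE3 and TFEC), which bind the palindrome CACGTG. Mouse hepatocytes also differ between the sexes: pulsed growth hormone in males, acting through its receptor and the factor STAT5B, keeps a set of male genes on and a set of female genes off. Most prominent among the male genes are the major urinary proteins (Mup), small pheromone carriers that the liver secretes in large amounts.

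Between 13275888 and 17058316 reads were assigned to genes in each of the 6 libraries, so that 1 read in a gene of 2 kb was worth 0.0246 to 0.0455 FPKM. Spearman correlations across genes were 0.967 to 0.977 between chow libraries, 0.957 to 0.967 between vehicle libraries and 0.861 to 0.879 between the groups. Hepatocyte markers were by far the most abundant of the cell type markers, at a summed level of at least 30011 FPKM in every library. Some libraries stood apart. Chow replicate 3 held pancreatic RNA (Pnlip, pancreatic lipase, at 1376 FPKM there and at 1.46 and 0 in the other chow libraries, and listed at 0 in all vehicle libraries). Chow replicate 2 was high in acute phase genes (Saa1 at 426 FPKM against 10.4 and 33.4). Vehicle replicates 1 and 3 were high in immediate early genes (Fos at 23.5 and 48.9 FPKM against 4 in replicate 2). Counts without each of these libraries are given with the limits in the closing section, and single genes that rest on them are named where they occur.

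Promoter sequences are shown for lysosomal genes and for Mup genes, because these are the groups in which sequence and change in expression can be read side by side. They come from RefSeq (GRCm38.p6, the assembly of mm10), are written 5′ to 3′ on the strand of the gene, and lie within the 250 bases before the annotated start. In the lysosomal genes the capitals mark CACGTG, and each stretch surrounds the CACGTG farthest from the start; Ctsd and Gla hold another one outside the stretch, and Mcoln1 holds 2 within it.
Ctsd, chr7:142388040-142388077, minus strand: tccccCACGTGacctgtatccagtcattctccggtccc
Ctsa, chr2:164833734-164833772, plus strand: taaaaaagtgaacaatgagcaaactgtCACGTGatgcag
Gla, chrX:134601200-134601255, minus strand: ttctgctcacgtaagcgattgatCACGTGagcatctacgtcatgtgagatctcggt
Lgmn, chr12:102439109-102439168, minus strand: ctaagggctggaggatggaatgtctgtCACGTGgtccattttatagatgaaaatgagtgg
Mcoln1, chr8:3500421-3500480, plus strand: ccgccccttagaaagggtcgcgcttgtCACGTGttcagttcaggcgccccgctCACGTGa
Gaa, chr11:119267796-119267855, plus strand: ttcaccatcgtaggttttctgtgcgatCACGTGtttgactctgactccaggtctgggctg
Ctsl, chr13:64370724-64370770, minus strand: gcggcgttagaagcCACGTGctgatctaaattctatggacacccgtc
Of the 42 listed lysosomal genes, 34 matched the promoter table, and 11 of them (32.4%) held CACGTG within 250 bases. Over all 27025 genes of the promoter table, 1854 did (6.86%). A gene was counted if any of its promoters held the motif. The longer palindrome TCACGTGA, which contains CACGTG, was found in 4 of the 34 (11.8%) and in 0.907% of all genes of the promoter table. Both motifs were searched on both strands. The cathepsin genes Ctsd and Ctsa, the galactosidase gene Gla and the protease gene Lgmn rose in vehicle livers, Gaa, acid alpha-glucosidase, fell, and Mcoln1, a calcium channel of the lysosome, and Ctsl, another cathepsin, were not called. Over all 11 genes with the motif, 5 rose, 1 fell and 5 were not called, and of the 23 matched genes without it, 15 rose, 3 fell and 5 were not called.

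In the Mup genes the capitals mark the TATA box motif TATATAA.
Mup15, chr4:61439723-61439829, minus strand: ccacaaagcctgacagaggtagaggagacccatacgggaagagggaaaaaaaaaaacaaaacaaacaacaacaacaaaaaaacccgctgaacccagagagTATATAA
Mup17, chr4:61595851-61595957, minus strand: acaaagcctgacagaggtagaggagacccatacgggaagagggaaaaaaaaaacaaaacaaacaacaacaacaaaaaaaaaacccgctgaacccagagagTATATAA
Mup3, chr4:62087322-62087428, minus strand: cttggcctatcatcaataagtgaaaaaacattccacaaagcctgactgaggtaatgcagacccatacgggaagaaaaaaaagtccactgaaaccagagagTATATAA
Mup21, chr4:62150843-62150949, minus strand: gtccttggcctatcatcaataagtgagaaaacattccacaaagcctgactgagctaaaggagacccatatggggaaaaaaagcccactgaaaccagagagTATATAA
TATATAA was found in 11 of the 14 Mup genes in the promoter table (78.6%) and in 3.6% of all its genes, searched on both strands. The stretch shown for Mup15 was identical to that of Mup19 over 107 aligned bases. Aligned to Mup17, it matched in every base pair, with 6 gap positions. It matched Mup3 in 68 of 75 base pairs (90.7%, with 64 gap positions, those at the ends included) and Mup21 in 65 of 72 (90.3%, with 70 gap positions), while Mup3 and Mup21 matched each other in 94.2% of base pairs (with 6). The STAT5 motif TTCNNNGAA, searched on both strands, was held by 2 of 24 male-biased genes (8.33%), 4 of 29 female-biased genes (13.8%) and 8.13% of all genes of the promoter table.

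The diet comparison called 5680 genes at an adjusted p under 0.05, which is 43.2% of the genes tested. Of these, 2802 (21.3%) were higher and 2878 (21.9%) were lower in vehicle livers. Higher genes changed by more: 1054 of them by 2-fold or more, on the scale of log2(FPKM + 1), and 239 by 4-fold or more, against 487 and 86 of the lower genes, and 615 of the higher genes had passed the filter through vehicle libraries only. The share of lower genes went with the level of the gene. Among the genes that reached 0.5 FPKM in at least 1 library of each group, 6.98% of 1433 were lower at a mean under 1 FPKM, 18% of 7387 from 1 to 10 FPKM, 35.6% of 3092 from 10 to 100 FPKM and 50.6% of 478 at 100 FPKM or more. The shares of higher genes in the same order were 10.7%, 21.3%, 13.9% and 7.11%. A further 479 genes under 1 FPKM had passed through vehicle libraries only and 99 through chow libraries only. Reads were accordingly spread over more genes: the 100 most abundant genes took 42.8% to 43.6% of the reads in chow and 34.0% to 37.2% in vehicle libraries, and 170 to 179 genes made up 50% of the reads in chow but 312 to 418 in vehicle libraries. The Mup genes alone took 3.36% to 3.77% of the reads in chow and 0.31% to 0.59% in vehicle libraries. The split of the calls depended on the scaling. The deposited values were scaled so that the median of all genes stood at -0.04. Scaled to total assigned reads instead, the median moved to 0.25, and 4967 genes were higher and 963 lower, or 83.8% against 49.3% of calls higher. In bulk liver RNA, fewer cells of a type and less RNA per cell cannot be told apart.

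**Figure D1:**
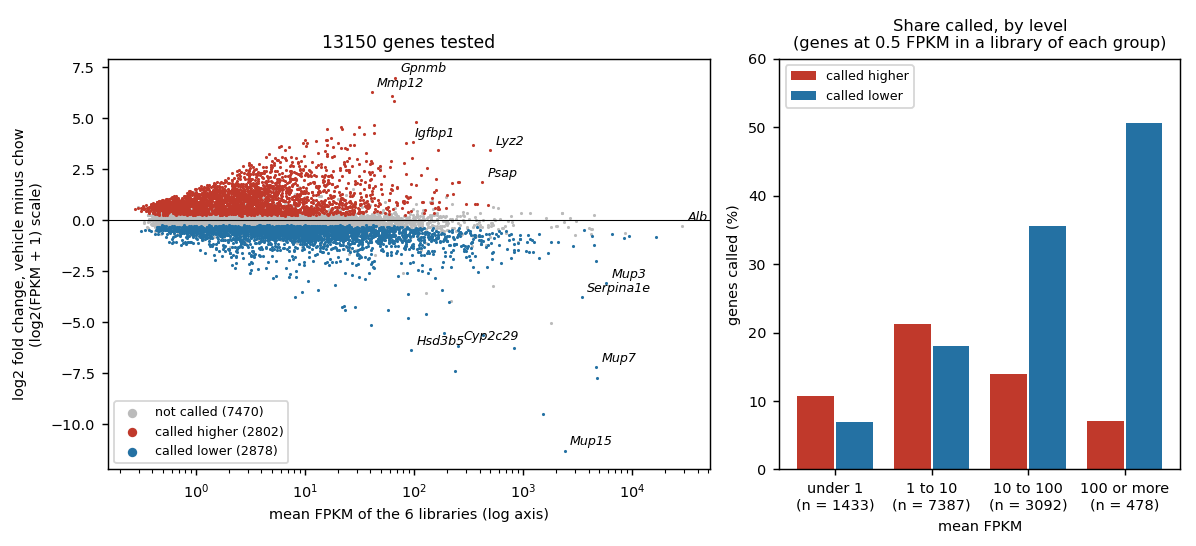
Left, log2 fold change of each of the 13150 genes against its mean FPKM in the 6 libraries (log axis), with genes called higher in red, lower in blue and not called in grey. Right, share of genes called in each direction by mean FPKM, for genes that reached 0.5 FPKM in at least 1 library of each group: the lower calls go from 6.98% of genes under 1 FPKM to 50.6% at 100 FPKM or more, and the higher calls are most frequent, at 21.3%, from 1 to 10 FPKM.

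The lists of genes described below differed widely. The largest median rise among lists of at least 10 genes was that of phagocyte oxidase, Fc and scavenger receptor genes (1.59) and the largest median fall that of male-biased hepatocyte genes (-2.51). The first rank depended on the 1 added to FPKM. Galectins and lectin receptors, at 1.55, stood above the phagocyte list with 0.1 added instead (2.34 against 2.15) or 5 (0.91 against 0.85). Cytosolic ribosomal protein genes had a median of -0.00, with 5 of 81 higher and 1 lower (2 to 4 higher when 1 chow or vehicle library was left out), but 37 of 81 higher and 0 lower when scaled to total assigned reads. Genes that passed the filter through vehicle libraries only were 6 of the 18 TNF superfamily genes and at most 4 on any other list. They weigh most on short lists: 4 of 17 galectins and lectin receptors, 4 of 18 fetal liver and tumour genes and 3 of 13 leukocyte integrins. At most 3 on any list passed through chow libraries only.

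**Figure D2:**
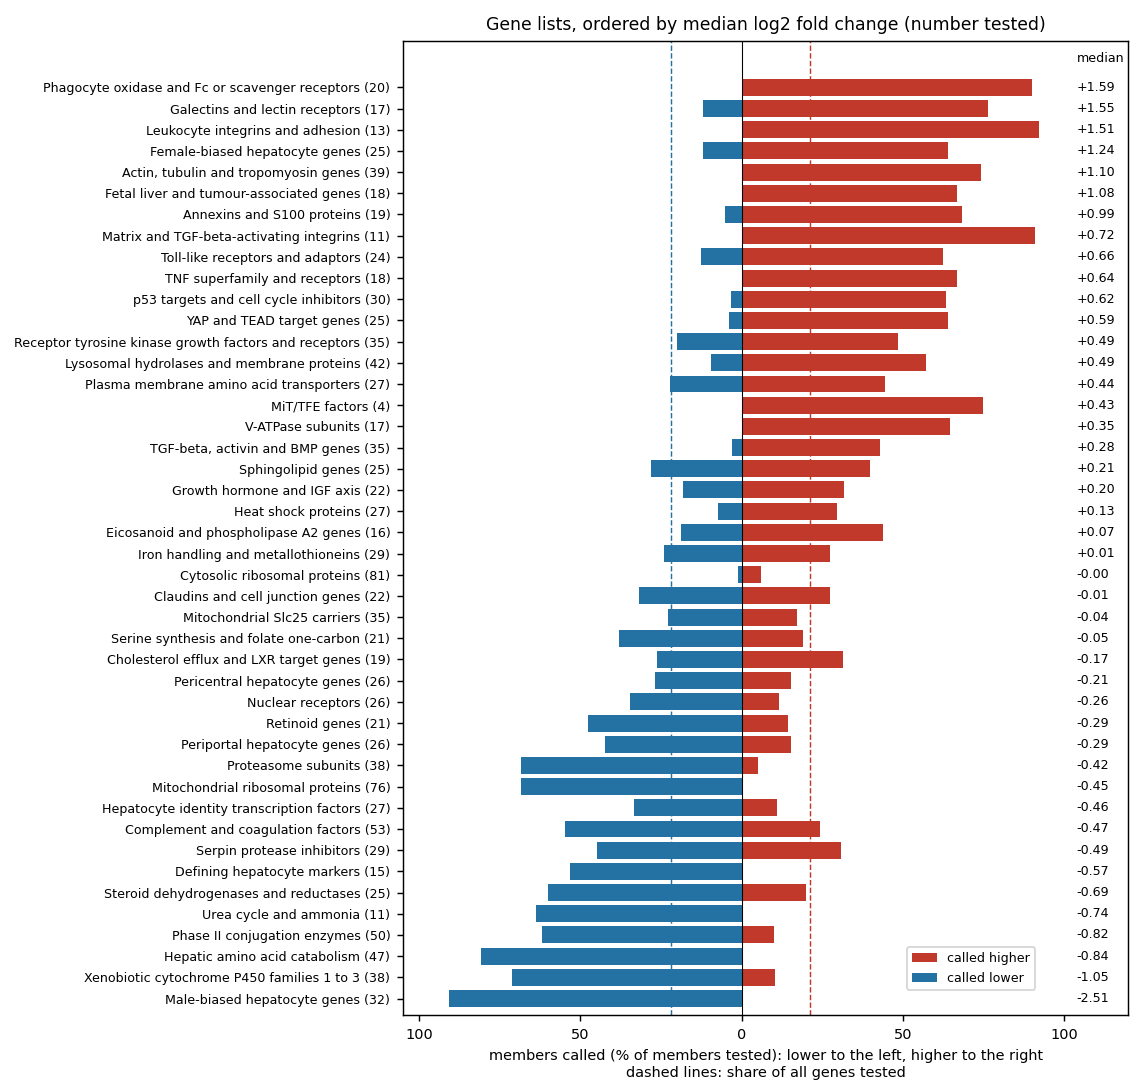
Share of the tested members of 44 gene lists that were called higher (red, to the right) or lower (blue, to the left), ordered by the median log2 fold change printed at the right, with the number tested in brackets. Dashed lines mark the shares over all 13150 genes, 21.3% higher and 21.9% lower; lists of phagocyte and leukocyte genes stand at the top and male-biased hepatocyte genes, at 0 higher and 29 lower of 32, at the bottom.

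Most male-biased hepatocyte genes were lower in vehicle livers. Of 33 male-biased genes listed, 32 were tested: 29 fell, 3 were not called and none rose, with a median of -2.51 against -0.04 over all genes. Moxd1 and Capn8 were the only ones of the 32 that passed the filter through chow libraries only, and Moxd1, at 112 FPKM in chow replicate 2 and 2.74 and 17 in the other chow libraries, lost its call with voom on whole reads or with only vehicle replicate 2 kept (-4.27, -5.46 without chow replicate 1 and -3.00 without chow replicate 2). Hsd3b5 (ENSMUSG00000038092), a male-specific steroid dehydrogenase on chromosome 3 (98618634 to 98630252), stood at 249, 140 and 168 FPKM in chow and at 0.118, 5.69 and 0.412 FPKM in vehicle libraries. The groups did not overlap, and its log2 fold change was -6.37 ± 0.62 (SE, adjusted p = 7.01e-05), or -7.17 without vehicle replicate 2. Elovl3, a fatty acid elongase, went from 140, 166 and 209 FPKM to 4.87, 7.15 and 3.77 FPKM. Cyp2d9, a steroid hydroxylase, fell by 2.53 ± 0.21 on the log2 scale, from 659 ± 118 to 115 ± 32.9 FPKM (SD, n = 3). Cyp7b1, an oxysterol hydroxylase, fell by 3.41 ± 0.34, and Serpina1e, an alpha-1-antitrypsin gene, fell from 6453 ± 467 to 500 ± 205 FPKM. A smaller fall was that of the complement gene C8b (-1.50 ± 0.21). Besides Mup20, the genes that did not pass were Serpina12 (-0.88 ± 0.33, adjusted p = 0.0565), which was called without chow replicate 2 (-1.11) or vehicle replicate 2 (-1.16), and Bcl6, a repressor of female genes, which varied within both groups (13.9, 3.09 and 2.61 FPKM in chow, 2.01, 8.42 and 2.56 FPKM in vehicle libraries). Summed over all male-biased genes, 5.14% to 5.39% of the reads in chow and 0.586% to 1.04% in vehicle libraries belonged to this list.

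Female-biased genes went the other way, though from low levels. Of 40 listed, 25 were tested, 4 of these through vehicle libraries only and 2 through chow libraries only. Of the 25, 16 rose and 3 fell, with a median of 1.24. Cd36, a fatty acid translocase that macrophages also carry, rose from 18, 24.7 and 17.3 FPKM to 174, 162 and 180 FPKM. Atp6v0d2, a subunit of the proton pump found in macrophages and osteoclasts as well as in female liver, rose from 0.742, 1.48 and 0.871 FPKM to 25.7, 30.5 and 34.2 FPKM. Genes whose products are hepatocyte enzymes rose too. Sult1e1, the estrogen sulfotransferase, stood at 0.187, 0.808 and 0.66 FPKM in chow and 4.33, 5.15 and 7.43 FPKM in vehicle libraries. Acot3, a peroxisomal thioesterase, rose by 2.21 ± 0.33 (adjusted p = 0.000798). Cyp2a4, a steroid hydroxylase with a near-identical paralog whose reads cannot be assigned with certainty, stood at 0.267, 0.133 and 0.681 FPKM in chow and 10.5, 2.69 and 12.1 FPKM in vehicle libraries; this call was lost if only vehicle replicate 2 was kept (1.46), and with voom on whole reads (4.45, adjusted p = 0.05). Other female cytochromes stayed near 0 in some or all vehicle libraries: Cyp2b9 stood at 0, 0.165 and 0.097 FPKM in chow and 7.79, 0.367 and 24.2 FPKM in vehicle libraries and did not pass the filter, Cyp2b13 had no read in chow and 9 in vehicle libraries, and Cyp3a41a was listed at 0 in all 6. Cux2, a female-specific factor, was at or under 0.0766 FPKM in every library. The 3 members that fell were Cyp2c40 (-2.83 ± 0.45), Cyp2c69 (-2.12 ± 0.43) and Hamp2 (-1.77 ± 0.46), a hepcidin, the last not with only vehicle replicate 2 kept (-1.80).

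**Figure D3:**
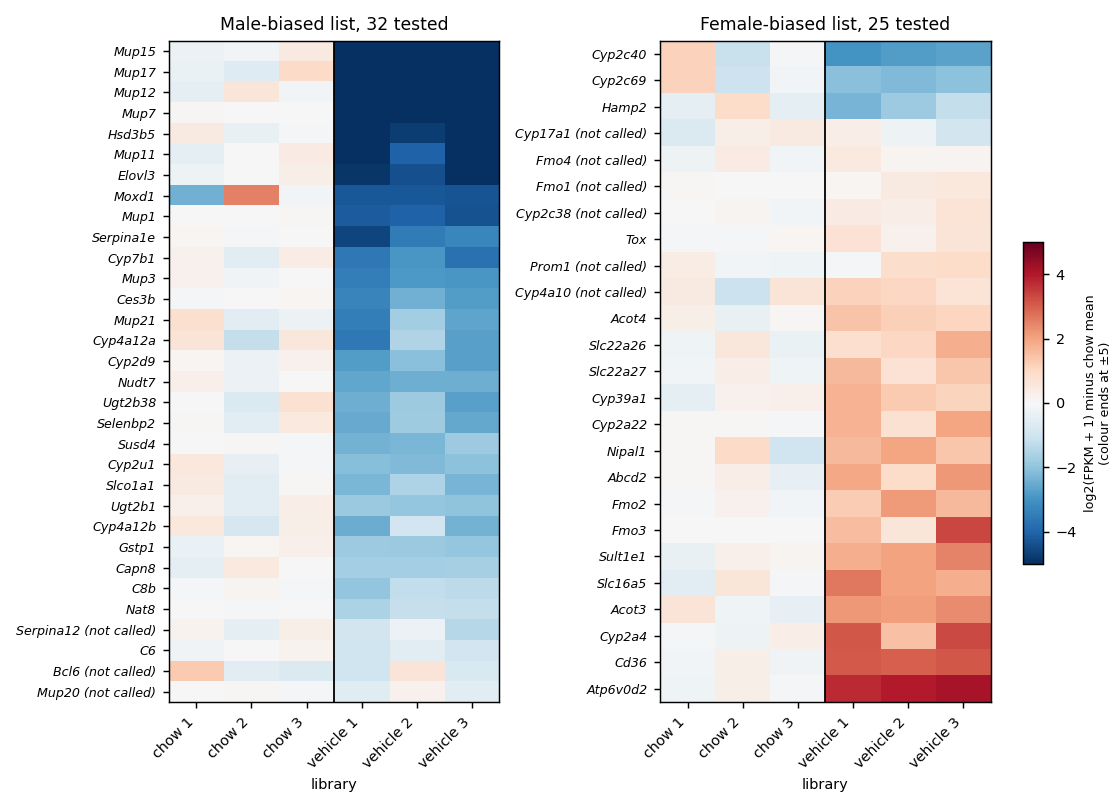
Difference of log2(FPKM + 1) from the chow mean for each tested male-biased gene (left, 32 genes) and female-biased gene (right, 25 genes) in the 6 libraries, with colour ending at 5 in either direction and genes that were not called marked. All 3 vehicle values lie below every chow value for 29 male-biased genes (blue) and above every chow value for 19 female-biased genes (red). Differences beyond 5, as for Mup15, share the same darkest colour.

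Among the vehicle libraries, replicate 2 stood closest to chow for most male-biased genes. It held the highest of the 3 vehicle values for 24 of the 32 male-biased genes, against 31.5% of all genes tested, and the lowest for 10 of the 25 female-biased genes (40%), against 34% of all genes tested. The median difference from the chow mean was -2.68 in vehicle replicate 1, -2.15 in replicate 2 and -2.68 in replicate 3 for male-biased genes, and 1.43, 0.92 and 1.37 for female-biased genes. Replicate 2 was also the library with the lowest level of immediate early genes among the vehicle libraries. Whether these go together was not tested.

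Within the Mup family, which fills a cluster on chromosome 4, 18 of 19 genes fell and Mup20 did not pass. Mup genes are near-identical, so reads may be divided between them in ways that differ from their true levels, and the order of single genes is uncertain. Mup15 (61435790 to 61439743) stood at 3881, 4230 and 6359 FPKM in chow and 0.198, 1.38 and 1.25 FPKM in vehicle libraries, a log2 fold change of -11.31 ± 0.29 (adjusted p = 1.16e-07). Mup17, with a similar promoter, fell by 9.52 ± 0.46 and Mup7 by 7.22 ± 0.84 (-6.00 without vehicle replicate 1 and -7.90 without vehicle replicate 2). Mup3 (62083476 to 62087342), the gene with the highest chow mean, stood at 11861, 9037 and 9948 FPKM in chow and still at 932, 1407 and 1343 FPKM in vehicle libraries (-3.08 ± 0.23). Mup21, whose promoter is most like that of Mup3 among those shown, went from 377, 148 and 175 FPKM to 18.6, 63.2 and 33.3 FPKM (-2.61 ± 0.50), and was not called with only vehicle replicate 2 kept (-1.74). Mup20 (62050234 to 62054158), which encodes darcin, a pheromone of male urine, stood at 2863, 2986 and 2656 FPKM in chow and 1839, 3285 and 1988 FPKM in vehicle libraries, and the groups overlapped (-0.31 ± 0.27, adjusted p = 0.402). Chow levels of some members varied widely: Mup4 stood at 6.05, 4.86 and 164 FPKM in chow and was listed at 0 in every vehicle library, and Mup19 at 22.8, 627 and 771 FPKM in chow. Both lost their calls with voom on whole reads and with only vehicle replicate 2 kept. Leaving out each chow library in turn moved the fall of Mup4 between -5.09 and -2.68 and that of Mup19 between -9.02 and -6.51.

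**Figure D4:**
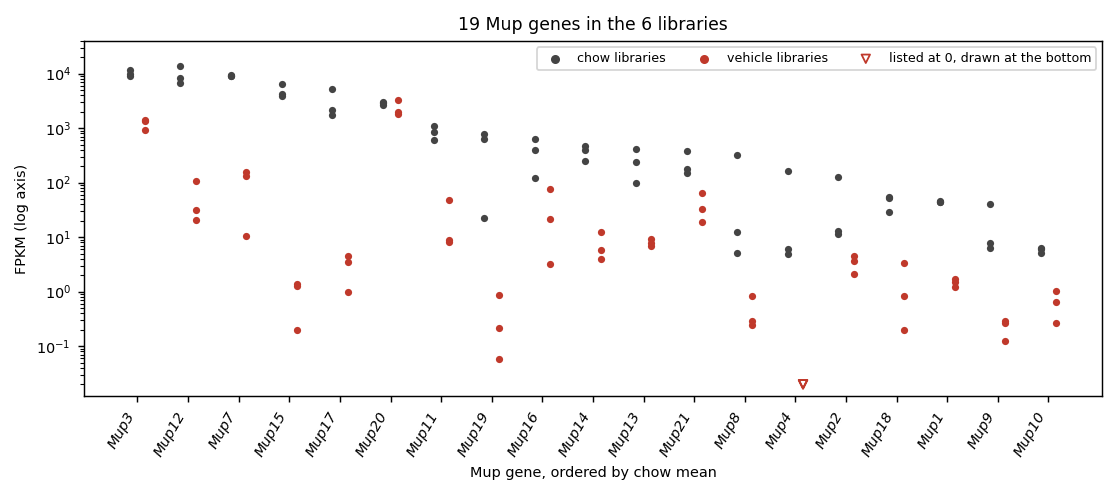
FPKM (log axis) of the 19 Mup genes tested in the 3 chow (grey) and 3 vehicle libraries (red), ordered by chow mean, with values listed at 0 drawn as open triangles at the bottom. The groups do not overlap for 18 genes and overlap for Mup20, and Mup3 keeps the highest vehicle level after Mup20.

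Genes of growth hormone and IGF signalling were mixed, with 7 higher and 4 lower of 22 tested, or 11 and 3 without vehicle replicate 1. The shares of 31.8% and 18.2% stood against 21.3% and 21.9% over all genes. Ghr, the growth hormone receptor, fell from 102, 75.4 and 90.1 FPKM to 38.5, 38.2 and 45.4 FPKM (-1.11 ± 0.14, adjusted p = 0.000347). Stat5b fell by 0.48 ± 0.09, a call lost when scaled to total assigned reads (-0.10), and Igfals, which binds circulating IGF1, fell by 0.95 ± 0.18, a call lost with only vehicle replicate 2 kept (-0.78). Igf1 itself, the main product of growth hormone action in liver, stood at 80.4, 79.3 and 80.9 FPKM in chow and 70.1, 73.8 and 61.4 FPKM in vehicle libraries and did not pass (-0.23 ± 0.15, adjusted p = 0.234). Igfbp1, an IGF-binding protein that insulin represses, rose from 33.3, 103 and 30.5 FPKM to 587, 548 and 785 FPKM (3.71 ± 0.40). Igfbp7 rose by 1.39 ± 0.18. Socs3, a feedback inhibitor of cytokine receptors, rose by 2.15 ± 0.59 with 16.8, 4.08 and 39.5 FPKM in the vehicle libraries, a call lost with only vehicle replicate 2 kept (0.55), and 2.95 without vehicle replicate 2 and 1.45 without vehicle replicate 3.

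Among 27 transcription factors of hepatocyte identity, 9 fell and 3 rose, with a median of -0.46, or -0.28 without vehicle replicate 2. Scaled to total assigned reads, 2 fell and 3 rose, with a median of -0.09. Hnf4a, a master regulator of hepatocyte genes, stood at 146, 181 and 123 FPKM in chow and 86.6, 81.7 and 84.5 FPKM in vehicle libraries (-0.81 ± 0.14, adjusted p = 0.00192), a call lost when scaled to total assigned reads (-0.41). Hnf4aos, an antisense transcript that overlaps it (chromosome 2, 163493807 to 163541720), fell further, from 6.13 ± 0.691 to 0.187 ± 0.124 FPKM (SD, n = 3); the strand setting of the counting is not given, so reads of the pair cannot be told apart with certainty. Foxa2 fell by 1.52 ± 0.24 and Cebpa by 0.81 ± 0.17, the latter not with quantile normalization (-0.33). The 3 that rose were Cebpd (1.81 ± 0.39), Sox9 (1.28 ± 0.26), a factor of bile duct cells, and Gata6 (0.88 ± 0.16); the first 2 were not called with only vehicle replicate 2 kept. Of 26 nuclear receptors, 9 fell and 3 rose, or 8 and 5 without chow replicate 2. With scaling to total assigned reads, 3 fell and 7 rose. The lower ones included Nr1h4, the bile acid receptor FXR (-0.66 ± 0.15), a call lost when scaled to total assigned reads (-0.27), and the median of these receptors then turned from -0.26 to 0.06.

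Hepatocyte metabolic genes fell in most classes. Beside them, 4 of 8 hepatocyte markers fell and none rose. Their summed level was 47705 to 53674 FPKM in chow and 30011 to 46114 FPKM in vehicle libraries, without overlap at the deposited scaling. A longer list of 15 hepatocyte markers took overlapping shares of the reads, 10.6% to 12.3% in chow and 10.1% to 12.8% in vehicle libraries. Its median of -0.57 was -0.17 when scaled to total assigned reads and turned to 0.04 with quantile normalization. The part of hepatocyte number or RNA content in these falls was not tested. Alb, serum albumin and the most abundant of the markers, stood at 34911, 25921 and 34467 FPKM in chow and 25838, 20061 and 32449 FPKM in vehicle libraries, which overlap (-0.30 ± 0.32, adjusted p = 0.486). Among amino acid catabolism genes, 38 of 47 fell and none rose, with a median of -0.84, and -0.45 when scaled to total assigned reads. Cbs, which starts the transsulfuration of homocysteine, stood at 117, 137 and 119 FPKM in chow and 30.6, 21.3 and 35.6 FPKM in vehicle libraries (-2.08 ± 0.18). Haao, of the route from tryptophan to NAD, fell by 2.03 ± 0.18, Gldc, the glycine decarboxylase, by 1.88 ± 0.16, and Hal, histidine ammonia-lyase, by 1.68 ± 0.24. Of 11 urea cycle and ammonia genes, 7 fell, among them Otc (-1.13 ± 0.17) and Ass1 (-1.17 ± 0.16), which was not called with quantile normalization (-0.30). The median of this list was -0.74, and -0.34 scaled to total reads and -0.09 with quantile normalization, so its size depends on the scaling. In folate metabolism the cytosolic enzymes and the enzymes of serine synthesis moved apart: Aldh1l1 (-1.66 ± 0.18) and Mthfd1 (-1.06 ± 0.13) fell, while Psat1 (1.31 ± 0.15) and the mitochondrial Mthfd1l (1.29 ± 0.16) rose from under 0.35 FPKM in every chow library.

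Xenobiotic cytochromes P450 of families 1 to 3 and conjugating enzymes were also lower. Of 38 P450 genes tested, 27 fell and 4 rose (median -1.05). Cyp2c29 stood at 549, 455 and 499 FPKM in chow and 9.21, 2.22 and 9.44 FPKM in vehicle libraries (-6.16 ± 0.64, adjusted p = 9.93e-05), with close relatives in its cluster that may share reads. Cyp2f2, a periportal P450, fell by 2.28 ± 0.15 and Cyp1a2, a pericentral one, by 1.36 ± 0.16. Cyp2e1, the most abundant, did not pass (-0.45 ± 0.23, adjusted p = 0.148), and was called higher with quantile normalization (0.59). Of 50 conjugating enzymes, 31 fell and 5 rose (median -0.82), or 2 to 3 rose without chow replicate 1, chow replicate 3 or vehicle replicate 2, with Ugt2b1, a glucuronosyltransferase, lower by -1.95 ± 0.25 and Gsta1, a glutathione transferase, higher by 2.06 ± 0.18. Of 25 steroid dehydrogenases and reductases, 15 fell and 5 rose, and the higher ones included the aldo-keto reductases Akr1b8 (1.93 ± 0.23) and Akr1b3 (0.99 ± 0.14). In retinoid metabolism, 10 of 21 fell and 3 rose (median -0.29, or -0.48 without chow replicate 1), but 5 fell and 5 rose when scaled to total assigned reads (median 0.04). Among the lower ones was Ttr, the carrier of retinol-binding protein, with 4141, 3935 and 4110 FPKM in chow and 1688, 1314 and 2126 FPKM in vehicle libraries (-1.28 ± 0.21), a call lost with quantile normalization (-0.32).

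Genes of the zones of the liver lobule were counted next. Of 26 pericentral genes, 7 fell and 4 rose (26.9% and 15.4%, near the 21.9% and 21.3% over all genes), and of 26 periportal genes, 11 fell and 4 rose. Their medians were -0.21 and -0.29. Leaving out 1 chow or vehicle library moved the pericentral median between -0.37 (without chow replicate 3) and -0.06 (without vehicle replicate 2) and the periportal one between -0.50 (without chow replicate 1) and -0.24 (without chow replicate 3), and both turned when scaled to total assigned reads (0.04 and 0.07). Glul, the glutamine synthetase of the hepatocytes around the central vein, stood at 246, 278 and 240 FPKM in chow and 291, 248 and 394 FPKM in vehicle libraries and did not pass (0.26, adjusted p = 0.252), but was called higher with quantile normalization (0.85) and with scaling to total assigned reads (0.66). Rhbg, an ammonium transporter of the same cells, rose by 1.21 ± 0.15. Apoa4, an apolipoprotein of lipid-rich particles, rose from 8.84, 13.5 and 12.5 FPKM to 241, 186 and 124 FPKM (3.84 ± 0.28), the largest rise on the periportal list.

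Genes of complement, coagulation and protease inhibition changed in both directions. Of 53 complement and coagulation genes, 29 fell and 13 rose (median -0.47, and -0.08 scaled to total reads). The lower ones included C9, a pore-forming complement protein (547, 603 and 518 FPKM in chow, 152, 171 and 170 FPKM in vehicle libraries, -1.75 ± 0.15), and Fga, a fibrinogen chain (-1.56 ± 0.24). The higher ones included the complement receptors C5ar1 (2.86 ± 0.14) and C3ar1 (2.68 ± 0.17) and the plasminogen activator Plau (from 0.77 ± 0.232 to 8.96 ± 1 FPKM, SD, n = 3). Serpins, a family of protease inhibitors, had 13 of 29 lower and 9 higher, and 9 each with quantile normalization: Serpina3k fell from 7511 ± 809 to 1885 ± 304 FPKM and Serpina1c by 2.31 ± 0.23 on the log2 scale, while Serpinh1, a collagen chaperone, rose from 5.86 ± 1.98 to 26.5 ± 8.89 FPKM and Serpinb6a by 1.73 ± 0.15. Serpina7, the thyroxine-binding globulin that hepatocytes secrete, also rose, from 18.1 to 59.1 FPKM in the mean (1.71 ± 0.32), a call lost if only vehicle replicate 2 was kept (1.30). Genes of iron handling were mixed (8 higher and 7 lower of 29, and 5 higher without chow replicate 3 or vehicle replicate 2). The shares higher and lower, 27.6% and 24.1%, were near the 21.3% and 21.9% over all genes. Hamp, hepcidin, ranged from 171 to 1159 FPKM in chow and from 82.9 to 373 FPKM in vehicle libraries and did not pass (-1.19 ± 0.72, adjusted p = 0.214), but was called lower without chow replicate 3 (-1.95). Slc30a10, a manganese exporter, fell from 7.63, 6.43 and 6.67 FPKM to 0.482, 0.506 and 0.487 FPKM (-2.40 ± 0.15).

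Phagocyte genes rose together. Of 20 phagocyte oxidase, Fc and scavenger receptor genes, 18 rose and none fell, and of 13 leukocyte integrins and adhesion genes, 12 rose and none fell. Cyba and Cybb, the membrane subunits of the phagocyte NADPH oxidase, rose by 2.77 ± 0.14 and 2.54 ± 0.11. Itgax, the CD11c integrin chain, went from 0.129, 0.321 and 0.265 FPKM to 11.4, 15.8 and 15.5 FPKM, and its partner Itgb2 rose by 3.55 ± 0.20. Of 17 galectins and lectin receptors, 13 rose and 2 fell. Clec7a, the beta-glucan receptor dectin-1, stood at 3.49, 3.31 and 3.04 FPKM in chow and 80.8, 80.7 and 85.9 FPKM in vehicle libraries (4.29 ± 0.09, adjusted p = 3.6e-08). Lyz2, lysozyme of macrophages and neutrophils, had the largest rise in mean FPKM of all genes tested, from 78.1, 86.6 and 80.6 to 639, 1085 and 1042 (3.44 ± 0.28). All 6 markers of recruited and lipid-associated macrophages rose, and their summed level was 40.2 to 61 FPKM in chow and 323 to 623 FPKM in vehicle libraries. Spp1, osteopontin, made up most of the sum in each chow library, at 41.1, 42.6 and 29.2 FPKM. It stood at 103, 306 and 180 FPKM in vehicle libraries (2.23 ± 0.36). Apart from Spp1 and Cd9, each marker was at or under 3.03 FPKM in every chow library. Gpnmb, a glycoprotein of lipid-laden macrophages, rose from under 0.06 FPKM in every chow library to 107, 147 and 147 FPKM (adjusted p = 4.19e-06). Of 3 cholangiocyte markers tested, 2 rose, with sums over all 4 of 2.19 to 8.9 FPKM in chow and 9.17 to 31 FPKM in vehicle libraries. Which cells gave the Spp1 reads was not tested. Of 4 Kupffer cell markers, 1 rose and 1 fell, with sums of 89.3 to 98.5 FPKM and 71.1 to 101 FPKM. The neutrophil marker Ly6g was listed at 0 in all libraries, while S100a8, another neutrophil gene, stood at 1.9, 8.56 and 2.1 FPKM in chow and 22.6, 15.5 and 21.7 FPKM in vehicle libraries and was not called with only vehicle replicate 2 kept. The part of cell numbers in these rises was not tested.

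Cytoskeletal genes and genes of membrane-binding proteins rose as well. Of 39 actin, tubulin and tropomyosin genes, 29 rose and none fell (median 1.10). Capg, an actin-capping protein of macrophages, went from 0.46, 0.458 and 0.648 FPKM to 19.5, 21.5 and 20.2 FPKM (3.81 ± 0.21), and Vim, vimentin, from 5.83 to 66.3 FPKM in the mean (3.31 ± 0.17). Tmsb4x, thymosin beta 4, was the most abundant member and rose by 1.89 ± 0.15. Of 19 annexins and S100 proteins, 13 rose and 1 fell, with Anxa1 (3.56 ± 0.25), Anxa2 (3.09 ± 0.29) and S100a11 (2.82 ± 0.27) ahead. Matrix integrins rose in 10 of 11 cases by smaller amounts, such as Itga5 (1.18 ± 0.15) and Itgb5 (0.99 ± 0.13). Stellate cell markers rose in 3 of 4 cases and had sums of 8.2 to 14.1 FPKM in chow and 20.1 to 32.1 FPKM in vehicle libraries; their part in these rises was not tested.

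Lysosomal genes rose unevenly. Of 42 tested, 24 rose, 14 were not called and 4 fell, with a median of 0.49, and their share of the reads was 0.582% to 0.651% in chow and 1.25% to 1.43% in vehicle libraries. The largest rises were those of genes that macrophages express. Cd63, a tetraspanin of late endosomes, went from 0.926, 0.964 and 1.24 FPKM to 25.5, 35.6 and 31 FPKM (3.95 ± 0.19), Cd68, a macrophage marker, rose by 2.91 ± 0.21, and Ctss and Ctsk, cathepsins of macrophages and osteoclasts, by 3.43 ± 0.28 and 2.77 ± 0.25. Psap, the precursor of the saposins that aid sphingolipid breakdown, was the most abundant member and rose from 178, 196 and 171 FPKM to 586, 710 and 700 FPKM. Ctsd rose from 89.1, 103 and 92.4 FPKM to 252, 399 and 399 FPKM (1.84 ± 0.21), and Hexa, a hexosaminidase chain, by 1.31 ± 0.09. Genes that fell did so by 0.50 or less: Lamp2 (-0.50 ± 0.15), Gm2a (-0.33 ± 0.10), Gaa (-0.32 ± 0.10) and Scarb2 (-0.28 ± 0.10), and none of these was called when scaled to total assigned reads, where Gm2a, Gaa and Scarb2 turned to 0.06, 0.06 and 0.11. These calls also rested on single libraries: that of Lamp2 was lost without chow replicate 1 or 3 or vehicle replicate 2 or 3 (-0.49 to -0.41), those of Gm2a and Gaa without chow replicate 1 or 2 or vehicle replicate 1 or 2 (-0.34 to -0.23), and that of Scarb2 without any 1 of the 6 (-0.31 to -0.24). Of the genes whose promoters are shown, Gla rose by 1.39 ± 0.10, Lgmn by 1.47 ± 0.17 and Ctsa by 0.58 ± 0.12, Mcoln1 stood at 0.08 ± 0.08 and Ctsl at 0.45 ± 0.21 (adjusted p = 0.108). Ctsl was called higher without chow replicate 2 (0.70), and both were called higher when scaled to total assigned reads (0.41 for Mcoln1 and 0.85 for Ctsl).

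The proton pump and the MiT/TFE factors showed smaller differences. Of 17 V-ATPase subunits, 11 rose and none fell (median 0.35), led by Atp6v0d2 and then Atp6v1b2 (0.96 ± 0.11). Mitf stood at 0.513, 0.548 and 0.411 FPKM in chow and 1.52, 2.28 and 2.14 FPKM in vehicle libraries (0.99 ± 0.11, adjusted p = 0.000175). Tfec, a relative with a restricted expression in macrophages, rose by 0.54 ± 0.10. Tfeb was called at 0.32 ± 0.10 (adjusted p = 0.0257), and not without chow replicate 3 (0.25), vehicle replicate 1 (0.31) or vehicle replicate 3 (0.32). Tfe3, the most abundant of the 4, had overlapping groups (0.31 ± 0.13, adjusted p = 0.0898) and was called higher without vehicle replicate 2 (0.43), as it was with values scaled to total assigned reads (0.60).

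**Figure D5:**
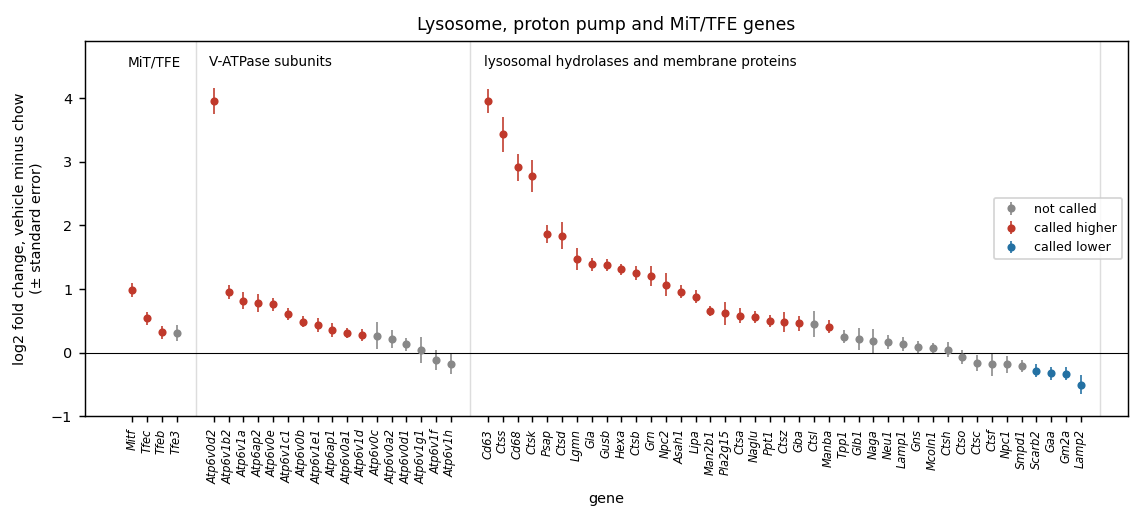
Log2 fold change (vehicle minus chow, points) with its standard error (bars) for 4 MiT/TFE factors, 17 V-ATPase subunits and 41 of the 42 lysosomal hydrolases and membrane proteins, each ordered by size, with genes called higher in red, lower in blue and not called in grey. Atp6v0d2 and Cd63 reach 3.95, and most members lie between 0 and 2.

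Signalling genes rose on most lists. Of 18 TNF superfamily genes, 12 rose and none fell, with Tnfrsf1b, the second TNF receptor, at 9.44, 13 and 9.3 FPKM in chow and 38.4, 35.7 and 44.2 FPKM in vehicle libraries (1.81 ± 0.17) and Eda2r, a p53 target, at 1.15 ± 0.11. Of 24 Toll-like receptor genes, 15 rose and 3 fell: Cd14, a co-receptor for lipopolysaccharide, rose by 3.52 ± 0.33, Tlr13 by 2.94 ± 0.18 and Tlr2 by 2.02 ± 0.12, and the adaptor Tirap fell by 0.79 ± 0.12. Of 16 eicosanoid and phospholipase genes, 7 rose and 3 fell (median 0.07). Pla2g7, a phospholipase, rose by 2.67 ± 0.22 and Alox5ap, the helper of 5-lipoxygenase, by 2.02 ± 0.24, and the epoxide hydrolase Ephx2 fell by 0.90 ± 0.14, not with quantile normalization (-0.32). Of 35 TGF-beta, activin and BMP genes, 15 rose and 1 fell. Tgfb1 rose from 1.78, 2.3 and 1.41 FPKM to 4.86, 6.25 and 7.33 FPKM (1.33 ± 0.16), and Gdf15, a stress hormone, by 2.44 ± 0.42. Of 35 receptor tyrosine kinase genes, 17 rose and 7 fell. Axl, a receptor for dying cells, rose by 1.89 ± 0.10, and the hepatocyte receptor Erbb3 fell by 0.87 ± 0.17, though it was not called when scaled to total assigned reads (-0.49) or with only vehicle replicate 2 kept (-0.49). Areg, a ligand of EGFR, had no read in chow and 396 reads in vehicle libraries, at 5.48, 1.34 and 12.1 FPKM (2.55 ± 0.50, or 3.21 without vehicle replicate 2 and 1.96 without vehicle replicate 3).

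Targets of growth control pathways rose too. Of 25 YAP and TEAD targets, 16 rose and 1 fell, among them Ctgf, a matricellular protein, from 2.11, 5.48 and 3.47 FPKM to 26.5, 27.7 and 26.1 FPKM (2.63 ± 0.26). Of 30 p53 targets and cell cycle inhibitors, 19 rose and 1 fell. Btg2, one of them, stood at 295, 21.5 and 307 FPKM in the vehicle libraries, again lowest in replicate 2, and at 2.92 to 3.94 FPKM in chow. Its rise of 4.83 was 6.08 without vehicle replicate 2 and 4.22 or 4.19 without replicate 1 or 3. Of 18 genes of fetal liver and liver tumours, 12 rose and none fell, with Cbr3, a carbonyl reductase, at 1.89 ± 0.20 and Ly6d, a membrane protein that some steatotic hepatocytes carry, at 8.75, 1.04 and 0.734 FPKM in chow and 30.1, 79.2 and 89.9 FPKM in vehicle libraries (4.23, or 5.02 without chow replicate 1). Afp, the fetal albumin, was not called and stayed near 1 FPKM (0.17 ± 0.14, adjusted p = 0.355).

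Cholesterol efflux and sphingolipid genes changed in both directions. Of 19 efflux and LXR target genes, 6 rose (31.6%) and 5 fell (26.3%), against 21.3% and 21.9% over all genes. Without chow replicate 1, chow replicate 2 or vehicle replicate 1, 3 fell. The median of -0.17 turned to 0.20 when scaled to total assigned reads. Abcg1, an exporter used by macrophages, rose from 2.36, 2.47 and 2.04 FPKM to 7.61, 9.45 and 8.59 FPKM, and Soat1, which esterifies cholesterol for storage, by 2.21 ± 0.11. Abca1 did not pass (-0.31 ± 0.18), and Abcg8, a part of the canalicular sterol pump, fell by 0.91 ± 0.18. Among 25 sphingolipid genes, 10 rose and 7 fell, or 4 without chow replicate 2 or vehicle replicate 1: the ceramide synthases Cers5 and Cers6, which make shorter ceramides, rose by 0.99 ± 0.14 and 1.13 ± 0.14, and Cers2, for very long ceramides and the main form of liver, fell by 0.49 ± 0.10, a call lost with quantile normalization (-0.17) and with scaling to total assigned reads (-0.09).

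The table assigns transcription factors to families, and the families differed from each other. Over all 761 factors tested, 133 rose (17.5%) and 176 fell (23.1%). Among the 761, 28 had passed the filter through vehicle libraries only and 8 through chow libraries only. Of 331 C2H2 zinc finger genes, 30 rose and 103 fell, with 10 passing through vehicle and 7 through chow libraries only. Their median was -0.22, while the median of all genes moved from -0.04 to 0.25 when scaled to total assigned reads. The counts by family were not repeated with other scalings. Of 37 bZIP factors, 17 rose and 2 fell, of 19 ETS factors, 11 rose and 1 fell, and of 8 Rel homology factors, 5 rose and none fell. Single members named here were chosen after their values were seen. Spi1 (PU.1), an ETS factor that macrophages require, stood at 2.24, 3.61 and 1.99 FPKM in chow and 13.1, 12.8 and 14.4 FPKM in vehicle libraries (2.02 ± 0.18). Relb and Nfkb2, of the alternative NF-κB pathway, rose by 1.66 ± 0.12 and 1.69 ± 0.14. Jun, a bZIP factor, rose by 2.74 ± 0.32 and Nfe2l2, the oxidative stress factor NRF2, by 1.18 ± 0.18. Of 8 RXR-like receptors, which include HNF4A, 5 fell and none rose. Among bHLH factors, the lipogenic regulators Mlxipl (ChREBP), from 34.3, 34.4 and 29.6 FPKM to 11.6, 11.3 and 11.9 FPKM, and Srebf1 (-1.07 ± 0.26) fell, and Myc rose by 3.24 ± 0.56, with 33.2, 7.04 and 49.9 FPKM in the vehicle libraries, or by 4.03 without vehicle replicate 2.

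Several protein complexes changed by small amounts that depend on the scaling. Of 76 mitochondrial ribosomal protein genes, 52 fell and none rose (median -0.45), but 5 fell and 4 rose when scaled to total assigned reads (median -0.11), and their share of the reads was 0.162% to 0.178% in chow and 0.159% to 0.168% in vehicle libraries. Of 38 proteasome genes, 26 fell and 2 rose (median -0.42), against 2 and 4 scaled to total reads (median -0.03). Psmb8, a subunit of the immunoproteasome, was one of the 2 that rose (0.53 ± 0.16, adjusted p = 0.0231), and lost this call without vehicle replicate 1 (0.48) or vehicle replicate 2 (0.50), and stood at 0.35 without chow replicate 3. The ribosomal protein genes Rpl3 and Rps6 did not pass (0.13 ± 0.10 and 0.06 ± 0.11), and both were called higher when scaled to total assigned reads (0.53 and 0.45). Among mitochondrial carriers, 6 of 35 rose and 8 fell (17.1% and 22.9%, near the 21.3% and 21.9% over all genes). Scaled to total assigned reads, 14 rose and 4 fell. Ucp2, an uncoupling protein of macrophages and fatty liver, rose by 2.19 ± 0.12 and Slc25a1, the citrate carrier, fell by 0.96 ± 0.17. Of 27 amino acid transporters, 12 rose, such as Slc1a5 (1.17 ± 0.15), and 6 fell, such as Slc38a3, the glutamine transporter of hepatocytes (-1.17 ± 0.23). Heat shock genes were 8 higher and 2 lower of 27, with the inducible Hspa1b at 3.51, 1.93 and 1.98 FPKM in chow and 20.8, 15.4 and 10.2 FPKM in vehicle libraries. Of 22 claudin and cell junction genes, 6 rose and 7 fell (27.3% and 31.8%), or 4 fell without vehicle replicate 1. Scaled to total assigned reads, 9 rose and 2 fell. Gjb1, the gap junction protein connexin 32 of hepatocytes, fell by 1.41 ± 0.15 and the tight junction gene Cldn1 by 1.26 ± 0.11, while Gja1, the gap junction protein connexin 43, rose by 1.34 ± 0.16.

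Long noncoding RNA genes and pseudogenes fell more often than they rose, and small RNA genes rose more often. Over all genes tested, 21.3% rose and 21.9% fell. Of these classes, only long noncoding RNA genes exceeded such a share, in their falls. Of 543 long noncoding RNA genes by the classes of the table, 66 rose and 164 fell (12.2% and 30.2%). Their median was -0.20, and the counts by class were not repeated with other scalings. Among these 543, 31 had passed the filter through vehicle libraries only and 37 through chow libraries only. Of 773 pseudogenes, 50 rose and 112 fell (6.47% and 14.5%), with 15 passing through vehicle and 11 through chow libraries only. Of 136 miRNA, snoRNA, snRNA and scaRNA genes, which poly(A) selection captures poorly, 19 rose and 6 fell (14% and 4.41%). Among these 136, 6 had passed through vehicle libraries only and 3 through chow libraries only. Gm31583, a lincRNA gene on chromosome 16 (24085083 to 24090089), stood at 33.4, 33.9 and 36.1 FPKM in chow and 1.77, 3.69 and 3.48 FPKM in vehicle libraries (-3.19 ± 0.19). Gm36161, on chromosome 13 (120010390 to 120018931), had 1 read over the chow libraries and 449 over the vehicle libraries. Ifi30, which the table classes as a processed transcript although it names a lysosomal thiol reductase, rose by 1.79 ± 0.17. Of 49 immunoglobulin gene segments, which are transcribed in B and plasma cells, 18 rose and none fell, and 7 of the 49 had passed the filter through vehicle libraries only, while B cell markers had sums of 1.07 to 1.44 FPKM in chow and 1.31 to 1.83 FPKM in vehicle libraries and the 1 of 3 that was tested was not called. Igkc, the kappa constant region, stood at 26.7, 47.4 and 27.5 FPKM in chow and 81.2, 131 and 107 FPKM in vehicle libraries. Of 31 genes of the mitochondrial genome, 17 fell and none rose. The 31 include 16 tRNA and 2 rRNA genes, and of the 13 that code for protein, 6 fell and none rose. Mitochondrial reads were 5.94% to 8.46% of the total in chow and 5.61% to 5.82% in vehicle libraries.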

How the data were processed

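The authors deposited a table of FPKM values and gene lengths for 9 liver libraries, made with HISAT2, featureCounts and the mm10 build per the submitters' processing notes; versions, annotation release and strand setting are not given in the sources used here. FPKM times length gave whole reads within 0.01 for 100.0% of values, which supplied the depth. Values were analysed as log2(FPKM + 1), computed here from the deposited FPKM, so folds of low genes are understated. limma 3.58.1 (R 4.3.3) with a variance trend was fitted to all 9 libraries (6 residual degrees of freedom), with Benjamini-Hochberg adjustment over the 13150 genes with at least 0.5 FPKM in 3 of 6 libraries, and genes with an adjusted p under 0.05 were called. The pipeline was tested on simulated data.

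Genes and lists were chosen with earlier results of these data known. Lists are described by counts and medians without a test, beside the 21.3% of genes higher and 21.9% lower. Genes were named by rule: the 15 largest called changes of protein-coding genes and the 5 of long noncoding genes in each direction, the 5 largest differences in FPKM in each direction, up to 4 called genes in each direction and the most abundant gene of each list, and a fixed set; of these a selection is printed. Another 24 genes were chosen after their values were seen, among them the promoter examples, transcription factors, Mup4, Mup21, Igkc, Saa1 and S100a8. Replicate numbers were used as a block only as an alternative. Some items are not reported here.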

Additional observations from a re-analysis of the deposited data

How the results depend on the processing

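Of 149 genes named and called, 122 kept direction and call under each of the 21 alternatives in which they were tested (2 of the 149 were not tested with a mean of at least 1 FPKM). Leaving out each library in turn gave 4747 to 5637 called genes (2479 to 2777 higher, 2246 to 2860 lower): 5120 without chow replicate 2, 4841 without chow replicate 3, 5000 without vehicle replicate 1 and 4959 without vehicle replicate 3, the libraries that stood apart. Scaled to total assigned reads, 4967 genes were higher and 963 lower. With only vehicle replicate 2 kept, whose spread is then taken from the other groups, 3620 genes were called, 1620 of them lower. The cause was not tested. Without a filter 3113 were higher and 2466 lower, and other settings called 4867 to 6058.

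Same-numbered chow and vehicle libraries did not deviate together (correlations of -0.026, -0.07 and -0.107, against -0.07 to 0.157 for other pairs). With 3 libraries a group, this cannot settle whether the numbers pair them. A fit with the replicate block called 5157 genes (2629 higher, 2528 lower).

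Some genes changed sign, 3 of them called before. Scaled to total reads, Abca1 stood at 0.07, Alb at 0.10, Igf1 at 0.16, Mup20 at 0.09, Gaa and Gm2a at 0.06 and Scarb2 at 0.11. With quantile normalization, Afp stood at -0.03, Alb at 0.00, Cyp2e1 at 0.59, Igf1 at 0.07 and Mup20 at 0.65. With only vehicle replicate 2 kept, Bcl6 stood at 0.64, Glul at -0.03 and Mup20 at 0.21. Leaving out each library in turn, Bcl6 ranged from -0.88 to 0.28 (without chow replicate 1) and Saa1 from -1.94 to 0.68 (without chow replicate 2); Saa1 stood at 0.33 with array weights. List medians turned sign in 9 of 47 lists scaled to total reads and in 7 with quantile normalization. At 13275888 reads or more a library, genes under 1 FPKM rest on few reads.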
